A study of Mus musculus with 12 samples.

Results

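The genes of the matrix metalloproteinases (MMPs), the ADAMTS proteinases, the ADAMTS-like proteins and the tissue inhibitors of metalloproteinases (TIMPs) were followed in cultured mouse oligodendrocyte precursor cells (OPCs). Members were all entries whose symbol starts with Mmp, Adamts, Adamtsl or Timp followed by a digit. They made up 52 of 45792 entries and 51 different symbols, namely 23 Mmp, 19 Adamts, 5 Adamtsl and 4 Timp. *Mmp27* was listed on 2 entries, both at 0, and was left out. Of the other 50 symbols, *Mmp7*, *Mmp8* and *Mmp20* were at 0 in every library. *Adamts13*, *Adamts18*, *Adamtsl2*, *Mmp1a* and *Mmp1b* were above 0 but under a mean of 0.1 FPKM (fragments-per-kilobase-per-million, the unit of the deposited tables), and 42 members were tested. Of these 42, 30 had a mean of at least 1 FPKM, which a call also required.

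MMPs and ADAMTS proteinases are zinc-dependent enzymes that cut proteins of the extracellular matrix and of the cell surface. MMPs are made as inactive proenzymes and are either secreted or anchored in the membrane, whereas ADAMTS enzymes are secreted and carry thrombospondin repeats that bind matrix. ADAMTS-like proteins share these repeats but have no catalytic domain, and TIMPs bind and block the active enzymes. In the brain, the proteoglycanase clade of ADAMTS is best known for cleaving lecticans, the chondroitin sulfate proteoglycans that fill the matrix around neurons and glia and that OPCs themselves make.

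The OPCs came from cortices of p2 to p5 pups by the labels, and of postnatal day 3 to 5 pups by the study's methods. The pups were either wild-type (WT) C57BL/6 (C57BL/6J in the study's methods) or germline TNFR2-/-. The latter are described as lacking tumor necrosis factor receptor 2 throughout the body. Per the study's methods the OPCs were selected with beads against PDGFRα and expanded with PDGF-AA and FGF2. After 3 days in vitro, the stimulated cells (St) received TNF, IFNγ and IL1β at 25 ng/mL each for 3 h, and the non-stimulated cells (NS) received PBS vehicle. RNA sequencing gave 3 libraries in each of the 4 groups, numbered 2, 3 and 4 for WT NS and WT St and 2, 4 and 5 for TNFR2-/- NS and TNFR2-/- St. NS and St libraries of the same genotype and number are called a culture below. The study's captions describe expression values from independent experiments, but the labels do not say whether the libraries of a group came from separate litters or animals, so p-values measure the spread between these libraries. With 3 libraries against 3, an exact permutation test of a single gene cannot go below p = 0.1. It gives that value to any gene whose groups do not overlap, so a lack of overlap alone is weak evidence. The share of all genes whose groups do not overlap is not given here.

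Library totals, as the FPKM imply them, were 26886878 to 30335265 reads, and replicates correlated at 0.991 to 0.995 across genes. In the gene of TNFR2, *Tnfrsf1b*, WT NS libraries had 12 to 24 reads and WT St libraries 61 to 145. Libraries labelled TNFR2-/- NS had 213 to 346 and those labelled TNFR2-/- St 282 to 356, so this gene went against the labels. A count over the whole gene does not show whether the deleted part was read. Every direction between genotypes below is therefore between libraries as labelled. All 8 OPC markers of the list used (among them *Pdgfra*, *Cspg4*, *Olig1* and *Sox10*) were tested, with a summed level of 2977 to 5421 CPM (reads-per-million of the library total). Of 8 microglial markers, *Cd68* (up to 347 reads) and *P2ry12* (up to 46) were tested, and the other 6, among them *Aif1*, *Cx3cr1* and *Ptprc*, reached at most 9 reads in any library. *Cd68* was called higher with stimulation in the libraries labelled TNFR2-/-, where the microglial sum was between 5.7 and 7.97 CPM in NS and between 10.1 and 12.6 in St. Most of that sum was *Cd68* itself, at means of 5.39 CPM in NS and 10.2 in St, while *P2ry12* did not rise (1.06 and 0.997). The summed level of 7 astrocyte markers was 1762 to 2101 CPM in WT NS and 1692 to 1750 in WT St, against 2530 to 3897 and 2675 to 3991 in the libraries labelled TNFR2-/- NS and TNFR2-/- St. That of 8 mural and fibroblast markers, mostly *Acta2* and *Cspg4*, of which OPCs also make the latter, was 755 to 1281 and 634 to 1070 in WT NS and WT St, against 449 to 885 and 305 to 703 in those labelled TNFR2-/-. Of the genes that define fibroblasts, *Col1a1* reached 920 reads and *Col1a2* 234, *Lum* reached 24 and was called higher with stimulation in both genotypes, and *Dcn* reached 10. From the same list, *Cspg4* was called lower with stimulation in WT. *Pdgfrb* was called lower in the libraries labelled TNFR2-/- (means of 1.55 CPM in NS and 0.483 in St). In bulk RNA, fewer cells of a type and less RNA per cell cannot be told apart.

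The divisor behind each FPKM value was a whole number unrelated to the length of the gene, from 58 to 8115 for the tested members, so FPKM was not compared between genes. Levels are given as CPM, from whole reads recovered from the FPKM, and between genes also per kilobase of annotated exon. *Mmp15*, a membrane-type MMP, had the highest level of the Mmp genes at 104 CPM per kilobase over the 12 libraries. *Mmp17* (13.6) and *Mmp16* (8.67), both membrane-type, and *Mmp14* (5.37), the best known of that type, followed on the same scale. Among Adamts genes *Adamts1* stood at 72.6 CPM per kilobase, *Adamts4* at 7.43 and *Adamts9* at 6.74. The place of *Adamts4* came from the stimulated libraries, since in WT NS and TNFR2-/- NS it stood at 1.93 and 1.83 CPM per kilobase, below *Adamts9* (6.15 and 5.9), *Adamts14* (5.38 and 5.25) and *Adamts10* (4.22 and 3.36). *Timp2*, the most widely expressed inhibitor, stood at 62.3, *Timp1* at 38.3, *Timp3* at 19.1 and *Timp4* at 12.9 CPM per kilobase. The 3 highest ADAMTS-like genes were far lower, with *Adamtsl3* at 1.53, *Adamtsl4* at 1.24 and *Adamtsl5* at 0.987. The gelatinases *Mmp2* (0.756) and *Mmp9* (0.131) and the stromelysins *Mmp3* (0.589) and *Mmp10* (0.126) were low on this scale. Taking the length of the longest transcript instead, *Mmp16* (15) passed *Mmp17* (14) and *Adamts9* (12.6) passed *Adamts4* (8.14).

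**Figure D1:**
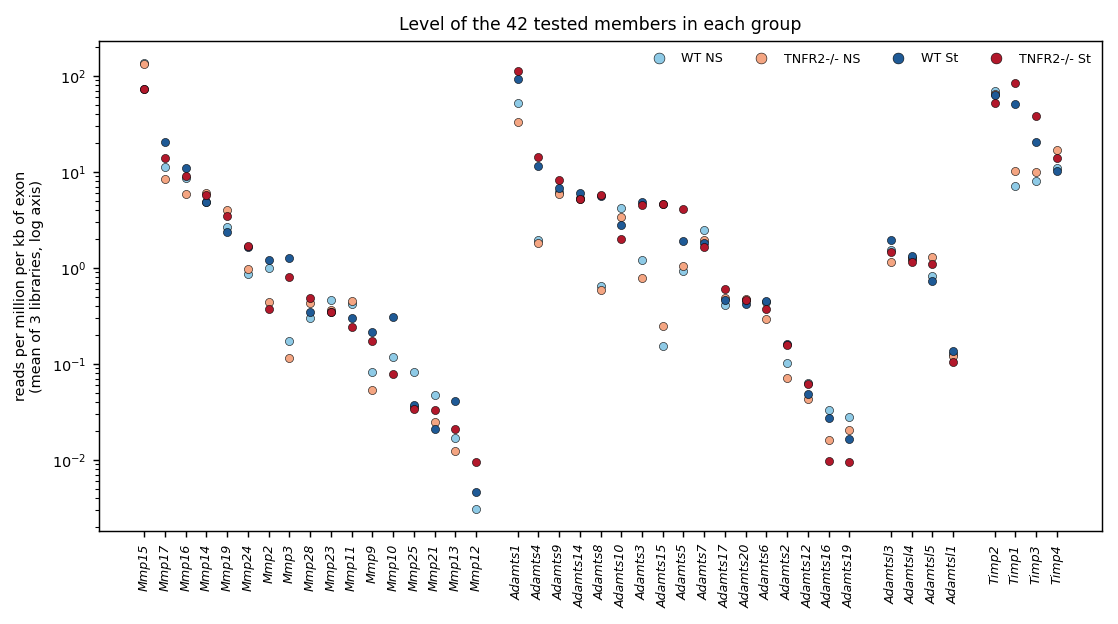
Level of the 42 tested members, as CPM per kilobase of exon on a log axis, with 1 point for the mean of 3 libraries in each group; a group mean of 0 (*Mmp10* and *Mmp12* in TNFR2-/- NS) is not drawn. *Mmp15*, *Adamts1* and *Timp2* lead their families, and the groups of *Adamts15*, *Adamts8*, *Mmp3* and *Timp1* are spread most visibly between NS and St.

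The first question was how the matrix proteinase genes of OPCs responded to the cytokines. In WT cells 9 of the 42 tested members rose, namely *Adamts15*, *Adamts8*, *Mmp3*, *Timp1*, *Adamts4*, *Adamts3*, *Timp3*, *Adamts5* and *Mmp17*, and 2 fell, *Mmp15* and *Adamts10*. To be called, a gene needed a limma adjusted p of 0.05 or less (Benjamini-Hochberg over 18081 genes), a change of 1.5-fold or more in either direction, and a mean of 1 FPKM or more, with fold changes on the log2(FPKM + 0.5) scale. Of all 18081 genes tested, 4.58% were called higher and 2.95% lower in this comparison, beside 21.4% and 4.76% of the members. In the libraries labelled TNFR2-/- the same 9 rose, joined by *Adamts1*, *Adamts2* and *Mmp16*, and the same 2 fell. There 5.41% of all genes were called higher and 4.68% lower, beside 28.6% and 4.76% of the members. The median log2 fold change of the members was 0.12 in WT and 0.21 in the libraries labelled TNFR2-/-, beside −0.05 and −0.11 for all genes. With median-of-ratios scaling the calls over all genes in the latter split 1106 higher to 559 lower, against 978 to 846 with the deposited scaling, and the members still split 12 to 2. The OPC markers summed to between 4265 and 5421 CPM in NS libraries and between 2977 and 3558 in St libraries. Of these 8 markers, *Cspg4* and *Olig2* were called lower in WT and *Sox10* higher (means of 201 CPM in NS and 309 in St). In the libraries labelled TNFR2-/- only *Olig2* was called, lower, and *Sox10* had means of 259 and 331. The 5 neuronal markers summed to between 96.3 and 124 CPM in NS and between 429 and 544 in St, most of it *Tubb3*, while *Snap25* was called lower in both genotypes. The part of these shifts in the results was not tested.

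**Figure D2:**
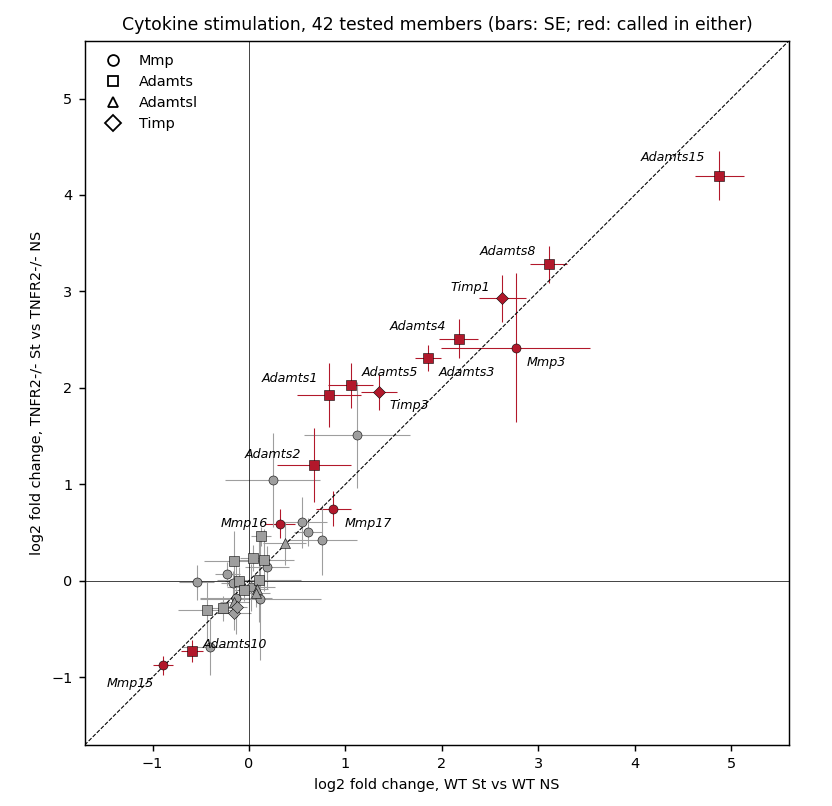
Log2 fold change of St over NS for the 42 tested members in WT (horizontal) and in the libraries labelled TNFR2-/- (vertical), with bars for the SE of the limma fit, a symbol shape for each gene family, red for members called in either comparison, and a dashed line where both are equal. *Adamts15* and *Adamts8* lie farthest from 0, *Mmp15* and *Adamts10* lie below 0 on both axes, and *Adamts1*, *Adamts5* and *Timp3* lie above the dashed line.

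The proteoglycanase clade held the largest changes. Of its 7 genes, all tested, 4 rose in WT (*Adamts15*, *Adamts8*, *Adamts4* and *Adamts5*) and 5 in the libraries labelled TNFR2-/-, where *Adamts1* was added, and none fell. *Adamts15*, a lectican-cleaving enzyme (ENSMUSG00000033453, chromosome 9 of GRCm38, 30899155 to 30922452, minus strand), stood at 1.7, 1.9 and 1.23 CPM in WT NS and at 47.2, 49.9 and 46 in WT St. It stood at 3.49, 2.25 and 1.94 in the libraries labelled TNFR2-/- NS and at 53.9, 56.8 and 32.2 in those labelled TNFR2-/- St. All stimulated libraries were above all non-stimulated ones, with a ratio of mean levels of 29.6 in WT and 18.6 in TNFR2-/-. The log2 fold change was 4.88 ± 0.25 (SE) in WT (limma adjusted p = 3.18e-07) and 4.20 ± 0.25 in the libraries labelled TNFR2-/- (limma adjusted p = 8.79e-07).

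*Adamts8* (chromosome 9, 30942562 to 30963838, plus strand), a related enzyme described as anti-angiogenic, starts 20.1 kb from the start of *Adamts15* on the opposite strand. It stood at 3.33, 2.75 and 2.77 CPM in WT NS, at 3.62, 2.05 and 2.54 in TNFR2-/- NS, at 27.3, 26.1 and 23.9 in WT St and at 32.7, 25 and 22.3 in the libraries labelled TNFR2-/- St. NS and St did not overlap, and levels rose 8.73-fold in WT and 9.74-fold in TNFR2-/- (log2 fold change 3.11 ± 0.19 and 3.28 ± 0.19, limma adjusted p = 1.26e-06 and 7.21e-07). These 2 neighbors had the highest fold changes of all tested members in both genotypes. The *Adamts8* exons share 489 bases, or 10.6%, with the gene *Gm29724* of the opposite strand. Whether reads were counted by strand is not given in the sources used here, so reads of an opposite-strand partner cannot be told apart.

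*Adamts4* (chromosome 1, 171250421 to 171260637), the classical aggrecanase and known to be made by oligodendrocytes, stood at 13.3, 8.37 and 6.14 CPM in WT NS and at 71.9, 47.2 and 47.9 in WT St. In the libraries labelled TNFR2-/- it went from 8.21, 9.78 and 8.37 to 64.8, 77.8 and 65.1. Its log2 fold change was 2.17 ± 0.20 in WT and 2.51 ± 0.20 in TNFR2-/- (limma adjusted p = 3.29e-05 and 8.36e-06). The ratio of mean CPM was 6.01 and 7.88, more than these values give, since 0.5 was added to low FPKM (a mean of 1.14 in WT NS).

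*Adamts5* and *Adamts1* are the other pair of neighbors, 53.1 kb apart on the minus strand of chromosome 16 (85856173 to 85901828 and 85793827 to 85803113). *Adamts5*, the second major aggrecanase, stood at 11.6, 10 and 8.27 CPM in WT NS and 23.6, 20.2 and 18.1 in WT St, and at 15.9, 10.8 and 7.32 and then 45.6, 40 and 46.9 in the libraries labelled TNFR2-/-. Both sets of NS and St values stood apart (log2 fold change 1.05 ± 0.24 in WT, limma adjusted p = 0.0114, and 2.03 ± 0.24 in TNFR2-/-, limma adjusted p = 1.26e-04). *Adamts1*, first described as an inflammation-associated gene, whose product cleaves versican and aggrecan, stood at 263, 292 and 272 CPM in WT NS and at 494, 492 and 484 in WT St. In the libraries labelled TNFR2-/- it stood at 201, 252 and 76.3 in NS and at 566, 607 and 621 in St. The third NS value, of culture 5, was under all others. *Adamts1* rose there by a log2 fold change of 1.93 ± 0.33 (limma adjusted p = 1.81e-03), and by 1.41 without TNFR2-/- NS replicate 5. In WT the groups did not overlap either, with a log2 fold change of 0.83 ± 0.33 that missed the threshold (limma adjusted p = 0.129). The fit shares 1 estimate of the spread over all 12 libraries, and without TNFR2-/- NS replicate 5 the WT value passed (limma adjusted p = 9.6e-05). The other genes of the clade, *Adamts9* and *Adamts20*, were not called. *Adamts9* went from 97.5, 96.2 and 84.1 to 113, 99.7 and 91.4 CPM in WT, and from 90.4, 83.2 and 92.6 to 112, 120 and 137 in the libraries labelled TNFR2-/-, where its adjusted p of 7.14e-03 passed but its log2 fold change of 0.46 ± 0.10 did not. Its exons share 1381 bases (9.18%) with *A730049H05Rik* of the opposite strand.

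**Figure D3:**
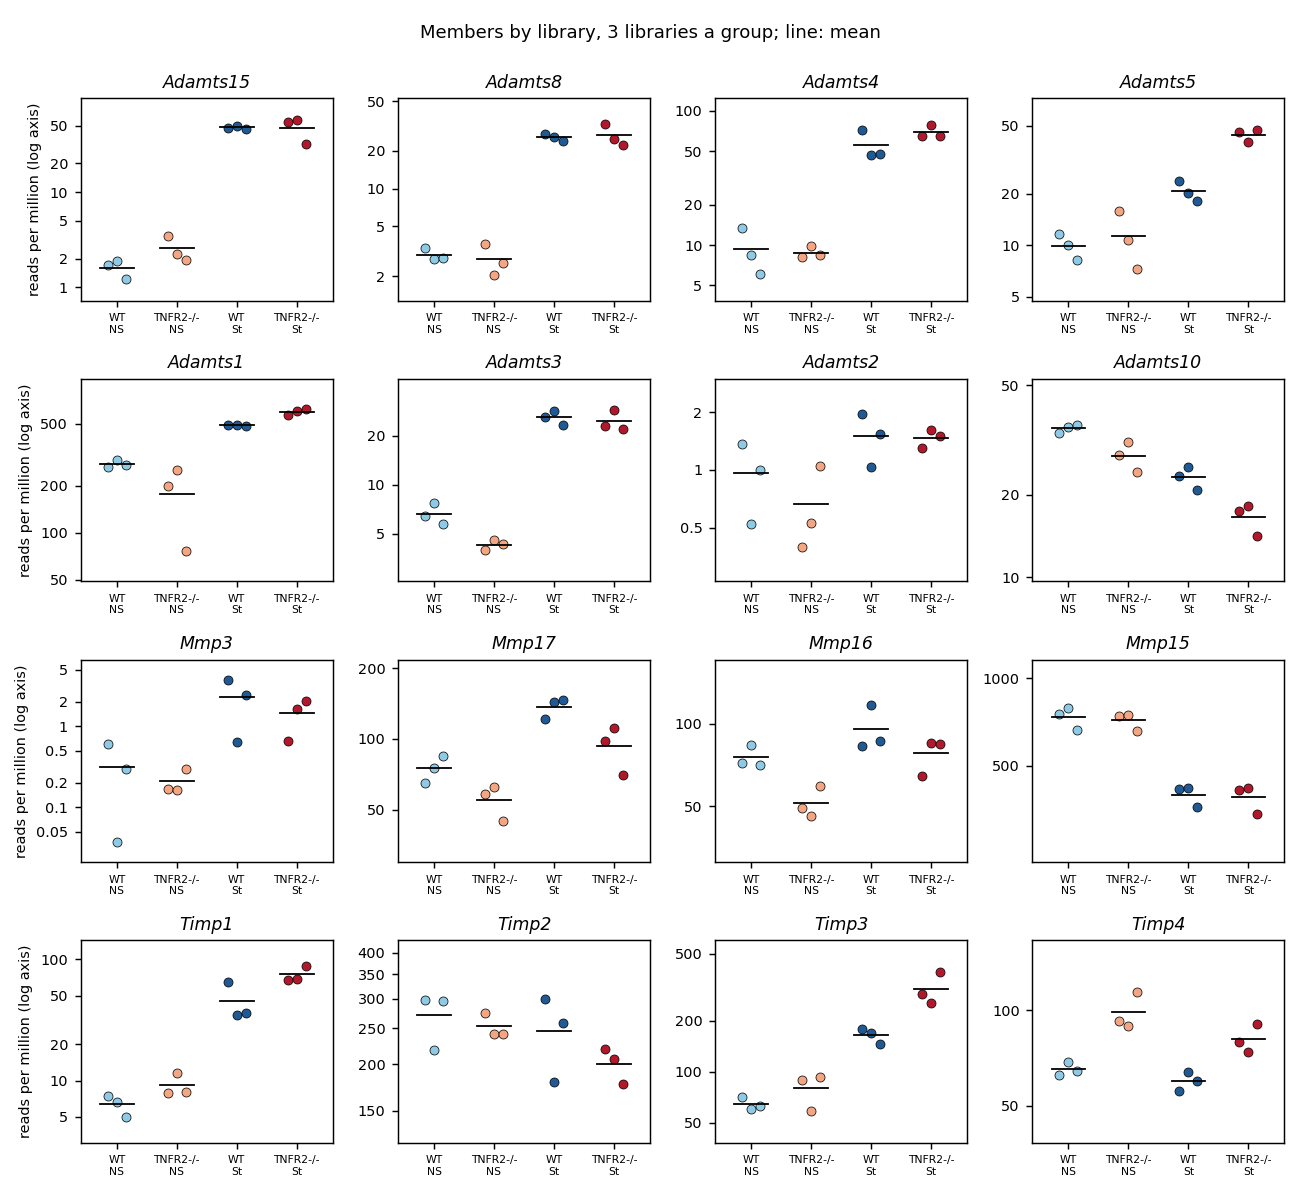
CPM (log axis) of 16 members in each of the 12 libraries, with a line at the mean of 3 libraries a group. *Adamts15* goes from 1.23 to 3.49 in NS to 32.2 to 56.8 in St, and *Mmp15* and *Adamts10* are lower in St than in NS of the same genotype. *Timp3*, *Adamts5*, *Timp1* and *Adamts1* are highest in the libraries labelled TNFR2-/- St.

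*Adamts3*, *Adamts2* and *Adamts14* encode the procollagen N-proteinases, which trim the amino ends of fibrillar procollagens, and ADAMTS3 also activates the lymphatic growth factor VEGF-C. *Adamts3* (chromosome 5, 89677087 to 89883334) stood at 6.43, 7.74 and 5.74 CPM in WT NS, 3.95, 4.59 and 4.32 in TNFR2-/- NS, 26.3, 28.6 and 23.5 in WT St and 23.1, 28.9 and 21.9 in the libraries labelled TNFR2-/- St. The St libraries of both genotypes lay in 1 range, well above NS, and the log2 fold change was 1.86 ± 0.13 in WT and 2.31 ± 0.13 in TNFR2-/- (limma adjusted p = 3.86e-06 and 6.09e-07). *Adamts2* was low, from 12 to 59 reads a library. It was called only in the libraries labelled TNFR2-/- (0.399, 0.529 and 1.05 CPM in NS, 1.3, 1.62 and 1.5 in St, log2 fold change 1.20 ± 0.38, limma adjusted p = 0.0415). That call was lost on leaving out any of 7 libraries (WT NS replicate 4, TNFR2-/- NS replicates 2 and 4, WT St replicate 4 and each TNFR2-/- St replicate), with log2 fold changes from 0.92 to 1.57 over the 12 left out in turn. *Adamts14* was at a mean of 28.4 CPM and had a log2 fold change of 0.11 in WT and 0.01 in TNFR2-/-.

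*Adamts10*, which binds fibrillin microfibrils, was the only Adamts gene that fell. It went from 33.5, 35.2 and 35.9 CPM in WT NS to 23.4, 25.3 and 20.8 in WT St, and from 27.8, 31.2 and 24.2 to 17.4, 18.2 and 14.2 in the libraries labelled TNFR2-/-. NS and St did not overlap in either genotype. The log2 fold change was −0.73 ± 0.12 in TNFR2-/- (limma adjusted p = 1.06e-03) and −0.59 ± 0.12 in WT (limma adjusted p = 5.43e-03). The WT value lay at the fold threshold, and leaving out WT NS replicate 3, WT NS replicate 4 or WT St replicate 4 moved it under it, to as little as −0.51. It was also lost with a pseudocount of 1, with median-of-ratios scaling and on log2(CPM + 0.5). Of the 9 Adamts genes outside the clade and the N-proteinases, 7 were tested, and *Adamts10* was the only one called in any of the 5 comparisons.

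Of the 6 membrane-type MMPs, *Mmp17* rose and *Mmp15* fell in both genotypes. *Mmp15* (chromosome 8, 95352268 to 95375080), which can activate pro-MMP2 at the cell surface, stood at 754, 793 and 661 CPM in WT NS and 415, 417 and 359 in WT St. In the libraries labelled TNFR2-/- it stood at 741, 748 and 659 in NS and 412, 419 and 340 in St. NS was above St throughout, and the log2 fold change was −0.89 ± 0.10 in WT and −0.88 ± 0.10 in TNFR2-/- (limma adjusted p = 1.52e-04 and 1.25e-04). *Mmp17* (chromosome 5, 129584169 to 129611099), which is held in the membrane by a GPI anchor, went from 64.7, 75.3 and 84.9 to 122, 143 and 146 CPM in WT and from 58.4, 62.6 and 44.6 to 98.4, 111 and 70.3 in the libraries labelled TNFR2-/-. Its log2 fold change was 0.87 ± 0.18 and 0.75 ± 0.18 (limma adjusted p = 7.15e-03 and 0.0117).

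*Mmp16* was called only in the libraries labelled TNFR2-/-. It stood there at 49.2, 45.8 and 59.4 CPM in NS and 64.6, 85.4 and 84.1 in St (log2 fold change 0.59 ± 0.155, limma adjusted p = 0.0176), and in WT at 71.6, 83.8 and 70.9 and then 83.1, 117 and 86.7 (0.33 ± 0.155, limma adjusted p = 0.209). The call was lost without TNFR2-/- NS replicates 2 or 4 or TNFR2-/- St replicates 4 or 5, when the log2 fold change went as low as 0.51. *Mmp24*, which is typical of neurons, was higher in St than in all NS libraries of its genotype, with means of 4 and 7.75 CPM in WT and 4.51 and 7.81 in those labelled TNFR2-/-. It passed the adjusted p in both (0.0166 and 0.0289 by limma, log2 fold change 0.61 ± 0.15 and 0.50 ± 0.15) but not the mean of 1 FPKM, its divisor being 6206. In the libraries labelled TNFR2-/- it also missed the fold threshold on the log2(FPKM + 0.5) scale, although its ratio of mean CPM was 1.73. At FPKM means of 0.726 in NS and 1.26 in St there, the added 0.5 makes the log2 fold change smaller. *Mmp14* and *Mmp25* were not called.

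Most of the secreted MMPs were scarce. Of the collagenases and stromelysins, *Mmp3* (stromelysin-1, which cuts many matrix proteins and activates other proMMPs) was the only one called. It had 18, 1 and 9 reads in WT NS, 113, 19 and 73 in WT St, 5, 5 and 9 in the libraries labelled TNFR2-/- NS and 20, 49 and 59 in those labelled TNFR2-/- St. St libraries were above all NS libraries of their genotype, although WT culture 3 was far below the other WT cultures in both conditions. The log2 fold change was 2.76 ± 0.77 in WT (limma adjusted p = 0.0338) and 2.42 ± 0.77 in TNFR2-/- (limma adjusted p = 0.0417). These calls rest on few reads. The WT call was lost without WT NS replicates 3 or 4 or WT St replicates 2 or 4, and the other without 7 of the 12 libraries (WT NS replicate 4, WT St replicate 4, each TNFR2-/- NS replicate and TNFR2-/- St replicates 4 and 5). Neither was called with voom on the recovered reads. *Mmp10* (stromelysin-2) had 3, 2 and 13 reads in WT NS, 20, 4 and 24 in WT St, 0 in each library labelled TNFR2-/- NS and 4, 3 and 5 in those labelled TNFR2-/- St. It was higher in St in all 6 cultures and was not called in either genotype, but passed in both when culture entered the fit as a block (log2 fold change 1.12 ± 0.30 and 1.51 ± 0.30, limma adjusted p = 0.0297 and 6.87e-03, against 0.222 and 0.0683 without it). Both also passed without WT St replicate 3, the one with 4 reads. *Mmp9*, a gelatinase, was also higher in St in all 6 cultures, at mean levels of 0.294 and 0.765 CPM in WT and 0.187 and 0.606 in TNFR2-/-, and was not called (limma adjusted p = 0.212 and 0.121). The other gelatinase, *Mmp2*, was highest in 1 culture, with 197 and 269 reads in WT culture 2 and 29 to 73 in the other 10 libraries. Of the 9 MMPs outside these classes, 6 were tested and none was called in any comparison. *Mmp19*, one of these 6, was less scarce, with 149 to 581 reads a library and 3.12 CPM per kilobase.

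*Mmp3* and *Mmp10* lie in a cluster on chromosome 9 that holds 9 of the 50 symbols used once (7272514 to 7699585 of GRCm38, 0.427 Mb). *Mmp27*, left out above, is not counted among these 9. RefSeq promoter windows of GRCm38.p6 matched 36 of the 51 member symbols, the 9 of the cluster included. In the 250 bases before the annotated start, the letters of the AP-1 site, TGANTCA (both strands, where N is any base), were found in 8 of the 9 cluster genes and in none of the other 27 members with a window. Over all 32851 windows the share was 6.75%. The *Mmp3* window (chr9:7445572-7445821, plus strand) is shown in full, because *Mmp3* is the gene of the cluster that was called, with the AP-1 letters in capitals.
Mmp3: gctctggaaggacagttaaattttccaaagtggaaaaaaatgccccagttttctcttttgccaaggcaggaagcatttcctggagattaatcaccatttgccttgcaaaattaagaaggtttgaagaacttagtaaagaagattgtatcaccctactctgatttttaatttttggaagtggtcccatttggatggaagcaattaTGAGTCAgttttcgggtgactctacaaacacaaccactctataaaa
The 8 matches follow with 10 bases on each side, 5′ to 3′ on the strand of the gene and the AP-1 letters in capitals, because they are the feature that the cluster genes share.
Mmp13 (chr9:7272469-7272495, plus strand): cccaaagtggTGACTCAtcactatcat
Mmp12 (chr9:7347320-7347346, plus strand): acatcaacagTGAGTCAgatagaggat
Mmp1b (chr9:7388103-7388129, minus strand): ttacaaagccTGAGTCAtatagcctct
Mmp3 (chr9:7445766-7445792, plus strand): gaagcaattaTGAGTCAgttttcgggt
Mmp1a (chr9:7464058-7464084, plus strand): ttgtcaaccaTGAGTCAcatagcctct
Mmp10 (chr9:7502269-7502295, plus strand): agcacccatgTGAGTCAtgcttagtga
Mmp20 (chr9:7628126-7628152, plus strand): atttgagacaTGAATCAtcacttacag
Mmp7 (chr9:7692017-7692043, plus strand): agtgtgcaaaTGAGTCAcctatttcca
They start 35 to 95 bases before the annotated start. The same letters thus stand before *Mmp3* and *Mmp10* and before genes with hardly any reads, since *Mmp13* had 1 to 5 reads a library, *Mmp12* 0 to 4, *Mmp1a* 0 to 2, and *Mmp7* and *Mmp20* none. A match of letters is a description of the window, not a binding site.

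The motif letters of NF-kappaB (GGGANTTTC), of STAT (TTCNNNGAA) and of a shortened interferon response element (GAAANNGAA) were searched in the same way. They were found in 0.941%, 7.02% and 7.13% of all windows, and in 0%, 2.56% and 5.13% of the 39 windows of members. Of the 9 members that rose in both genotypes, *Timp1*, *Mmp3*, *Adamts3* and *Timp3* had a window, and apart from the AP-1 letters of *Mmp3* none of the 4 motifs was found there. The *Timp1* window (chrX:20869916-20870165, plus strand) is shown because *Timp1* rose most of these 4; it holds no match and so no capitals.
Timp1: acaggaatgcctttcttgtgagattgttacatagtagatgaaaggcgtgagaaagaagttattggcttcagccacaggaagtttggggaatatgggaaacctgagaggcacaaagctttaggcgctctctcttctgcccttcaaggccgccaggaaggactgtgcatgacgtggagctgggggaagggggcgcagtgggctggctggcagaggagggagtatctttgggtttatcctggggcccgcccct

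The 4 inhibitors went apart under stimulation. *Timp1* (chromosome X, 20870166 to 20874735), the inducible and soluble member, stood at 7.43, 6.62 and 4.97 CPM in WT NS and at 64.8, 34.6 and 36.3 in WT St. In the libraries labelled TNFR2-/- it went from 7.87, 11.6 and 8.08 to 68.2, 68.8 and 88.8. All St libraries were above all NS libraries, and levels rose 7.13-fold in WT and 8.21-fold in TNFR2-/- (log2 fold change 2.63 ± 0.24 and 2.93 ± 0.24, limma adjusted p = 3.05e-05 and 1.01e-05). *Timp3* (chromosome 10, 86300372 to 86349506) encodes the inhibitor that binds to matrix and blocks ADAMTS enzymes and ADAM17 as well as MMPs. It stood at 70.7, 60.5 and 63 CPM in WT NS, 89.4, 58.8 and 93 in TNFR2-/- NS, 180, 169 and 147 in WT St and 287, 256 and 389 in the libraries labelled TNFR2-/- St. Its log2 fold change was 1.35 ± 0.19 in WT and 1.95 ± 0.19 in TNFR2-/- (limma adjusted p = 6.1e-04 and 3.06e-05). Of its exon bases, 1733 (21.3%) are shared with *Syn3* of the opposite strand, a gene at a mean of 2.95 CPM.

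*Timp2* and *Timp4* were not called in either genotype. *Timp2* stood at 299, 218 and 297 CPM in WT NS and 300, 179 and 259 in WT St, and at 275, 241 and 242 and then 220, 207 and 177 in the libraries labelled TNFR2-/- (log2 fold change −0.16 ± 0.18 and −0.33 ± 0.18, limma adjusted p = 0.66 and 0.22). *Timp4* had a log2 fold change of −0.13 ± 0.10 in WT and −0.27 ± 0.10 in TNFR2-/- (limma adjusted p = 0.505 and 0.0795). Per kilobase, *Timp1* moved from the lowest of the 4 in WT NS (7.14 CPM, against 7.95 for *Timp3* and 69.7 for *Timp2*) to 50.9 in WT St, beside 63.2 for *Timp2*. In the libraries labelled TNFR2-/- St, *Timp1* at 84.8 stood above *Timp2* at 51.6 on that scale. None of the 4 tested Adamtsl genes was called in either genotype, with log2 fold changes from −0.15 to 0.37 in WT and from −0.23 to 0.39 in TNFR2-/-.

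The comparisons between genotypes use the same libraries as those of stimulation and are not independent of them. Without stimulation, the libraries labelled TNFR2-/- differed from WT in a single called member. *Adamtsl5*, a secreted protein of the fibrillin matrix, stood at 5.15, 5.71 and 7.55 CPM in TNFR2-/- NS and at 3.33, 3.76 and 4.67 in WT NS. The groups did not overlap, and the log2 fold change of 0.586 ± 0.15 lay just inside the threshold (limma adjusted p = 0.0394). Groups of several members that were not called did not overlap either, among them *Timp1* and *Mmp17* (limma adjusted p = 0.222 and 0.126). No member was called lower. Of all genes 1.62% were called higher and 1.28% lower. The *Adamtsl5* call was lost on leaving out 8 of the 12 libraries in turn, among them each WT NS library, with log2 fold changes from 0.44 to 0.71, and under 7 of 14 other settings. *Timp4*, which is strongly expressed in brain, lay just outside the fold threshold, with 92.1, 89.4 and 114 CPM in TNFR2-/- NS against 62.6, 68.7 and 64.5 in WT NS (log2 fold change 0.58 ± 0.10, limma adjusted p = 0.0156). *Adamts3* (−0.54 ± 0.13, limma adjusted p = 0.0331) and *Mmp16* (−0.55 ± 0.155, limma adjusted p = 0.0478) also passed the adjusted p but not the fold threshold, and both were lower in every TNFR2-/- NS library than in any WT NS library. *Mmp10* had 2 to 13 reads in WT NS and 0 in each of the 3 libraries labelled TNFR2-/- NS (a limit of 3 reads a library by counting error), with a limma adjusted p of 0.0709. *Mmp23*, which lies 10.4 Mb from *Tnfrsf1b* on chromosome 4, had a log2 fold change of −0.15 (limma adjusted p = 0.46). The median over the members was −0.12, against 0.04 over all genes. With median-of-ratios and quantile scaling the calls over all genes split 227 higher to 260 lower and 213 to 261, against 293 to 231 as deposited, and neither called *Adamtsl5*. In its place the former called *Mmp16* lower and the latter *Adamts3* lower.

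After stimulation, *Timp3* and *Adamts5* were higher in the libraries labelled TNFR2-/- St than in WT St, and no member was called lower. Of all genes 1.18% were called higher and 0.614% lower. *Timp3*, with the values given above, did not overlap between the genotypes and was 1.88-fold higher (log2 fold change 0.89 ± 0.19, limma adjusted p = 0.0309). *Adamts5*, the aggrecanase described above, did not overlap either and was 2.14-fold higher (log2 fold change 1.10 ± 0.24, limma adjusted p = 0.0327). Both calls depended on single libraries. *Timp3* was lost without WT NS replicate 4, any WT St replicate or TNFR2-/- St replicates 2 or 5, and *Adamts5* without any WT St replicate or TNFR2-/- St replicates 2 or 5; the direction was kept, with log2 fold changes from 0.72 to 1.02 and from 1.01 to 1.20. Without TNFR2-/- St replicate 4, both were still called. *Timp1* at 1.66-fold (log2 fold change 0.77 ± 0.24, limma adjusted p = 0.0812) and *Mmp17* at 0.681 times the WT level (−0.58 ± 0.18, limma adjusted p = 0.0792) did not overlap between genotypes and missed the adjusted p. *Timp4* (0.44 ± 0.10, limma adjusted p = 0.0416) and *Adamts10* (−0.48 ± 0.12, limma adjusted p = 0.0438) did not overlap either and passed the adjusted p but not the fold threshold. The other members without overlap were *Adamts1* (0.29 ± 0.33), *Adamtsl5* (0.51 ± 0.15) and *Adamts16* (−0.25 ± 0.12). They missed both thresholds (limma adjusted p = 0.617, 0.0737 and 0.204). *Adamts15*, *Adamts8*, *Adamts4* and *Adamts3*, the Adamts genes with the highest responses in WT, had log2 fold changes of −0.04 ± 0.25, 0.03 ± 0.19, 0.32 ± 0.20 and −0.09 ± 0.13 between genotypes, with all 4 overlapping. The astrocyte marker sums given above did not overlap between the genotypes in either condition, while the mural and fibroblast sums overlapped and had lower ranges in the libraries labelled TNFR2-/- (in NS, 1 of 7 astrocyte markers was called higher, and in St, 2 of 7; of the mural and fibroblast markers 0 of 7 tested were called in either, and of 8 OPC markers *Pdgfra* was called lower in St). Their part in these results was not tested.

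Whether the response itself differed by genotype was tested as the interaction of genotype and stimulation. No member was called (limma), and over all genes 0.00553%, a single gene, were called. Of the members, 5 of 42 had an unadjusted p under 0.05, beside 7.95% of all genes. The 5 were *Adamts5* (difference of log2 fold changes, TNFR2-/- minus WT, 0.97 ± 0.33, limma adjusted p = 0.548), *Adamts1* (1.10 ± 0.47), *Timp3* (0.61 ± 0.27), *Adamts3* (0.45 ± 0.19) and *Adamts9* (0.34 ± 0.14), the other adjusted p-values being 0.6 to 0.614. Voom on the recovered reads called no member either. By culture, *Adamts5* rose by 1.02, 1.01 and 1.13 on the log2 scale in WT cultures 2, 3 and 4 and by 1.51, 1.89 and 2.67 in cultures 2, 4 and 5 labelled TNFR2-/-. *Timp3* rose by 1.34, 1.48 and 1.22 and by 1.68, 2.12 and 2.06, and *Adamts1* by 0.91, 0.75 and 0.83 and by 1.49, 1.27 and 3.02. In all, 6 of the 42 members (these 3, *Adamts3*, *Adamts4* and *Adamts9*) had higher responses in every TNFR2-/- culture than in any WT culture, beside 9.87% of all genes, and 2 (*Adamts15* and *Timp4*) had lower ones in every TNFR2-/- culture, beside 18.3% of all genes. For *Adamts1* and *Adamts5* the highest was that of culture 5, whose NS library was lowest in its group. *Adamts15* responded with 4.77, 4.69 and 5.18 in WT and 3.93, 4.64 and 4.03 (interaction −0.68 ± 0.36, limma adjusted p = 0.686).

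**Figure D4:**
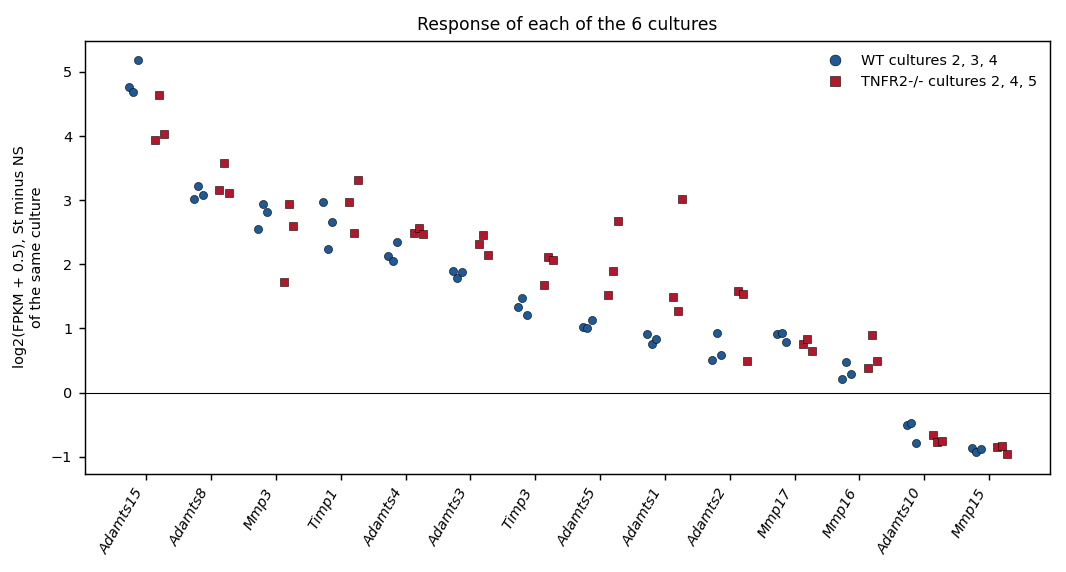
Response of each of the 6 cultures, as log2(FPKM + 0.5) of its St library minus that of its NS library, for the 14 members called in either stimulation comparison; circles are WT cultures and squares cultures labelled TNFR2-/-. The cultures of a genotype agree in sign for all 14 genes, *Adamts5*, *Timp3*, *Adamts1*, *Adamts3* and *Adamts4* are higher in every TNFR2-/- culture than in any WT culture, and *Adamts15* is lower.

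Other genes of matrix proteolysis were read from a list of 50 (ADAM proteinases, plasminogen system, astacins, cathepsins, other regulators, and lecticans with their partners), of which 47 were tested. In WT 3 of these 47 were called higher and 2 lower with stimulation, beside 4.58% and 2.95% of all genes. In the libraries labelled TNFR2-/- 6 were called higher and 2 lower, beside 5.41% and 4.68% of all genes. The medians were −0.03 and −0.07, near those of all genes (−0.05 and −0.11), so the list as a whole is not read as a response. *Furin*, which cuts the propeptides of ADAMTS and membrane-type MMPs, rose by 0.90 ± 0.11 on the log2 scale in both genotypes (limma adjusted p = 2.23e-04 and 1.65e-04), and *Adam19* rose by 0.61 ± 0.17 in both (limma adjusted p = 0.0352 and 0.0246). *Tfpi2*, *A2m* and *Plaur* were called higher in the libraries labelled TNFR2-/- alone, with values in WT in the same direction (limma adjusted p = 0.343, 0.0717 and 0.057), and the difference between the genotypes was not called. The *Tfpi2* call rests on few reads, at means of 0.0771 CPM in TNFR2-/- NS and 0.531 in TNFR2-/- St. Of 12 lecticans and partners none was called higher. *Tnc* of this list went up without being called, by 0.375 ± 0.31 in WT and 0.90 ± 0.31 in TNFR2-/- (limma adjusted p = 0.513 and 0.058). *Acan*, the gene of aggrecan, the namesake substrate of the aggrecanases, fell from 49.2 to 26.6 CPM in WT and from 35.8 to 18.4 in TNFR2-/- (log2 fold change −0.90 ± 0.23 and −0.96 ± 0.23, limma adjusted p = 0.0242 and 0.0125). *Cspg4* was called lower in WT and *Hapln4* in TNFR2-/-, with values in the same direction in the other genotype. In TNFR2-/- *Cspg4* changed by −0.55 ± 0.12 (limma adjusted p = 6.62e-03) and missed only the fold threshold. In WT *Hapln4* changed by −0.53 ± 0.26 (limma adjusted p = 0.229), and the interaction was called for neither gene. *Bcan* and *Vcan*, the genes of brevican and versican, were not called, at −0.21 and −0.23 in WT and −0.25 and −0.01 in TNFR2-/-. *Ncan* was not called either, at −0.23 in WT and −0.17 in TNFR2-/-. No gene of the list was called between the genotypes in either condition. Of all genes, 1.62% were called higher and 1.28% lower in NS, and 1.18% and 0.614% in St.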

How the data were processed

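Messenger RNA of 12 OPC libraries (4 groups of 3) was sequenced. Per the study's methods and the labels, trimming was done with Trim Galore, alignment to GRCm38 with STAR and normalization with edgeR, and the authors deposited FPKM per gene in 2 tables, one for each condition. Whether counting used strand is not given in the sources used here. The methods name a BGISeq-500 and the labels an Illumina protocol.

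The deposited FPKM equal whole reads × a constant per library divided by a whole number per gene that is the same in both tables. Reads were recovered on this basis for 26636 of 26636 symbols above 0 in at least 2 libraries, and library totals are those that the constants imply, slightly above the sums of the recovered reads. CPM and intervals of counting error rest on them. Exon lengths and coordinates are of GENCODE M21 and promoters of RefSeq, both GRCm38.

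Values entered limma 3.58.1 (R 4.3.3) as log2(FPKM + 0.5), with 4 group means, a mean-dependent prior and all 12 libraries, for the 18081 genes averaging 0.1 FPKM or more, with Benjamini-Hochberg adjustment over all of them. Genes were called at the 1.5-fold threshold that the study's methods state for pathway, network, heatmap and overlap plots. There it went with a minimum log2 CPM of 1, in place of which a mean of 1 FPKM was used here. For differential expression itself the study asked only for an adjusted p of 0.05 or less, so the calls here are not made by the study's rule. The code was tested on simulated data. Tables and plots were made with Python 3.11.15, numpy 2.4.6, pandas 2.3.3 and matplotlib 3.10.9. Genes named in full were the 4 Timp genes, every member called in any of the 5 comparisons, and the 3 highest of each other family per kilobase; *Mmp9*, *Mmp10*, *Mmp24* and the other members named were chosen after their values were seen. The members and the lists of roles, related genes and markers were chosen with earlier results of these data known. Protein sequences were not used here. Results of a few genes outside the members are not reported here, although counts over lists include them.

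NS and St libraries of the same genotype and number deviated together from their group means (6 pairs, correlation 0.338 to 0.649 over 13554 genes, against −0.455 to 0.088 for the other 12 pairs), so culture pairs them within a genotype. Between genotypes the same number gave −0.0779 to 0.204 over 8 pairs and was not taken as pairing. Alternatives were other pseudocounts, filters, scalings, fits and replicate blocks, voom on the recovered reads, and leaving out each library.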

Additional observations from a re-analysis of the deposited data

How the results depend on the processing

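The stimulation counts were stable: 11 members in WT (10 to 12 under the 14 other settings, 9 to 13 on leaving out each library) and 14 in the libraries labelled TNFR2-/- (12 to 15, and 11 to 15). The genotype counts were not. In NS, 1 member was called, against 4 with a pseudocount of 0.1, 0 with a pseudocount of 1, 0 without a filter on low values, 0 in a fit over the libraries compared, 3 with a replicate block by number, 2 with voom, 0 on log2(CPM + 0.5) and 4 without a fold threshold, and 0 to 3 on leaving out each library. In St, 2 were called, against 0 without the filter, 1 in a fit over the libraries compared (without *Timp3*), 5 with a replicate block by number and 4 without a fold threshold, and 0 to 2 on leaving out each library. The interaction stayed at 0 in every setting run. Voom on the recovered reads, with its own test, called 10 members in WT, 13 in the libraries labelled TNFR2-/- and 3 between genotypes in St. With culture as a replicate block within genotype, the counts were 1, 12, 15, 2 and 0, and *Mmp10* was the only call that changed. Over 28 called values and 26 settings, 659 of 728 kept their call, 69 lost it and 0 reversed. Among these, *Mmp3* was lost in both genotypes with voom, without the filter and with a minimum mean on the CPM scale, and *Mmp17* in the libraries labelled TNFR2-/- in a fit over the libraries compared; the cause was not tested. Depth limits genes such as *Mmp3* and *Mmp10*, with 0 to 113 reads a library, and the minimum of 1 FPKM depends on a divisor that differs between genes.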
